A study of Homo sapiens with 8 samples.

Results

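The fibroblast growth factor (FGF) system of a human breast cancer line was followed through 10 genes. They were the ligands FGF1, FGF2 and FGF5, the intracellular FGF13, the receptors FGFR1, FGFR2, FGFR3, FGFR4 and FGFRL1, and the carrier protein FGFBP1. The members were all probes annotated to these genes, 21 of 28098 Illumina probes and 36 of 41091 Affymetrix probe sets that carry 1 gene symbol. The genes were chosen with their measured changes in both comparisons known. Their changes are therefore given as a description, with no test of their own. LM2, a line labelled as highly metastatic, was set against MDA-MB-231, a triple-negative breast cancer line labelled as poorly metastatic, from which LM2 was derived by selection for growth in the lung. LM2 cells that over-express miR-126, a microRNA, were set against LM2 control cells. Each of the 4 groups had 2 arrays, A and B, as lettered in their titles. All cells were grown in DMEM with serum, LM2 and MDA-MB-231 were measured on Illumina bead arrays, and both groups of the miR-126 comparison were measured on Affymetrix arrays. The labels give neither the vector that delivered miR-126 nor what the control cells carried, and nothing in them tells whether A and B are separate cultures. The spread between arrays may therefore be technical.

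Secreted FGFs bind receptor tyrosine kinases at the cell surface together with heparan sulfate, and the active receptors signal through the RAS and ERK cascade, which switches on its own inhibitors. FGF1 and FGF2 lack a classical signal peptide and leave the cell by an unconventional route, while FGF5 is secreted and is best known as a brake on hair growth. FGF13 belongs to the FGF homologous factors, which stay inside the cell, bind the cytoplasmic tails of voltage-gated sodium channels and are not classical ligands of the receptors. FGFRL1 binds FGFs but lacks the kinase domain of the other receptors, and FGFBP1 releases FGFs that are held in the extracellular matrix.

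The over-expressed RNA is shown first because it defines the second comparison. The miR-126 hairpin gives a mature RNA from each arm, at chr9:136670653-136670674 for the 3p arm and chr9:136670616-136670636 for the 5p arm, both on the plus strand (RefSeq, GRCh38.p14). Capitals mark the seed, bases 2 to 8, which directs pairing to target transcripts. The arms share no seed, neither mature RNA was measured on these arrays, and target sites in the transcripts of the 10 genes were not searched.
hsa-miR-126-3p: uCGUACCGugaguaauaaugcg
hsa-miR-126-5p: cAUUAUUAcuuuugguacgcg

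The sequence around the start sites of FGF13 is shown because FGF13 had the largest change of the 10 genes and is transcribed from alternative starts, whose products differ in the first exon. RefSeq gives 2 windows for it on the minus strand of the X chromosome, each from 250 bases before to 50 bases after a start (GRCh38.p14), with 465.7 kb between the starts. The upstream window lies at chrX:139204974-139205273 and the downstream window at chrX:138739304-138739603. The array values do not say which start was used. Capitals mark motifs found on either strand.
FGF13 upstream start: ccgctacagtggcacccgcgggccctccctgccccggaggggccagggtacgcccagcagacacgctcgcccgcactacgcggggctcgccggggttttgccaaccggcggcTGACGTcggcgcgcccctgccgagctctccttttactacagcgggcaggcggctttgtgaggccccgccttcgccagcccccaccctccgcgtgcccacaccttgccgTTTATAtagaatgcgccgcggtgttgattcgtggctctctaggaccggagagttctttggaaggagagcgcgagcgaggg
FGF13 downstream start: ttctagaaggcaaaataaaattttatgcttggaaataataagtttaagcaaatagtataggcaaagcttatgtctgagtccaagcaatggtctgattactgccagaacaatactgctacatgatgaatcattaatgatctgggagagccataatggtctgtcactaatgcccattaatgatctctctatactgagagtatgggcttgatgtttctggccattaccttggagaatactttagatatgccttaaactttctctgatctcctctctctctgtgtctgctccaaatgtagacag
The upstream window held 34 CpG dinucleotides, a number reached by 15.6% of 35116 RefSeq windows of the same length, whose median was 14. The downstream window held 0. Of the motifs searched on both strands, the upstream window held 1 TATAAA, present in 11.5% of all windows and read here as its reverse complement, and 1 TGACGT, the core of the cAMP response element, present in 7.98%. The upstream match to TATAAA and the match to TGACGT do not overlap. Neither window held GGGCGG (45% of windows), CCAAT (34.6%), the AP-1 element TGACTCA (4.95%) or TGATGNAA, an element of the stress factor ATF4 (3.62%). These matches describe letters only.

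The arrays themselves differed in spread. Averaged over the tested probes, the absolute difference between the miR-126 arrays was 0.289 log2, between the LM2 control arrays 0.099 log2 and between the means of these groups 0.164 log2. On the Illumina side the arrays differed by 0.184 log2 within LM2 and by 0.239 log2 within MDA-MB-231, and the group means by 0.220 log2. The number of arrays limits the precision. VIM, CD44, AXL, EGFR and KRT18, which mark this line, were all above the expression filter in both tables, a mean over the 4 arrays above the median of all probe means. Of 5 genes expected to be low in the line, 3 were above the filter on each platform, CDH1, EPCAM and ERBB2 on the Illumina and EPCAM, ERBB2 and ESR1 on the Affymetrix arrays. The summed intensity of these 5 was 1591 to 1761 in LM2 and 2239 to 3241 in MDA-MB-231. CDH1, the epithelial cadherin, was called lower in LM2 (limma, adjusted p under 0.05), and the part of these genes in the results was not tested. Of markers of fibroblasts, endothelium, blood cells and melanocytes, 7 of 17 on the Illumina and 11 of 17 on the Affymetrix arrays lay above the filter, and none was called. Over all genes, 12490 of 18852 on the Illumina and 12923 of 19775 on the Affymetrix arrays had a probe above it. Passing the filter therefore does not show that a gene was expressed.

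The 21 Illumina probes of the 10 genes differed by -0.27 to 0.24 log2 between LM2 and MDA-MB-231, and 9 lay above the filter. LM2 and MDA-MB-231 did not overlap in 7 of the 21, 3 higher and 4 lower in LM2, where 40.1% of all probes with 1 gene symbol did not overlap in either direction. None of the 9 was called by limma at an adjusted p under 0.05, where 2.01% of 16434 tested probes were called, 124 higher and 207 lower in LM2. The 36 Affymetrix probe sets differed by -0.45 to 1.41 log2, and 17 lay above the filter. Groups did not overlap in 17 of the 36, 11 higher and 6 lower in miR-126 cells, where 38.7% of all probe sets with 1 gene symbol did not overlap. None of the 17 above the filter was called by limma, as 0% of 23063 tested probe sets were, of which 1862 had an unadjusted p under 0.05. Since the genes were chosen on these comparisons, nothing is read from these counts.

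**Figure D1:**
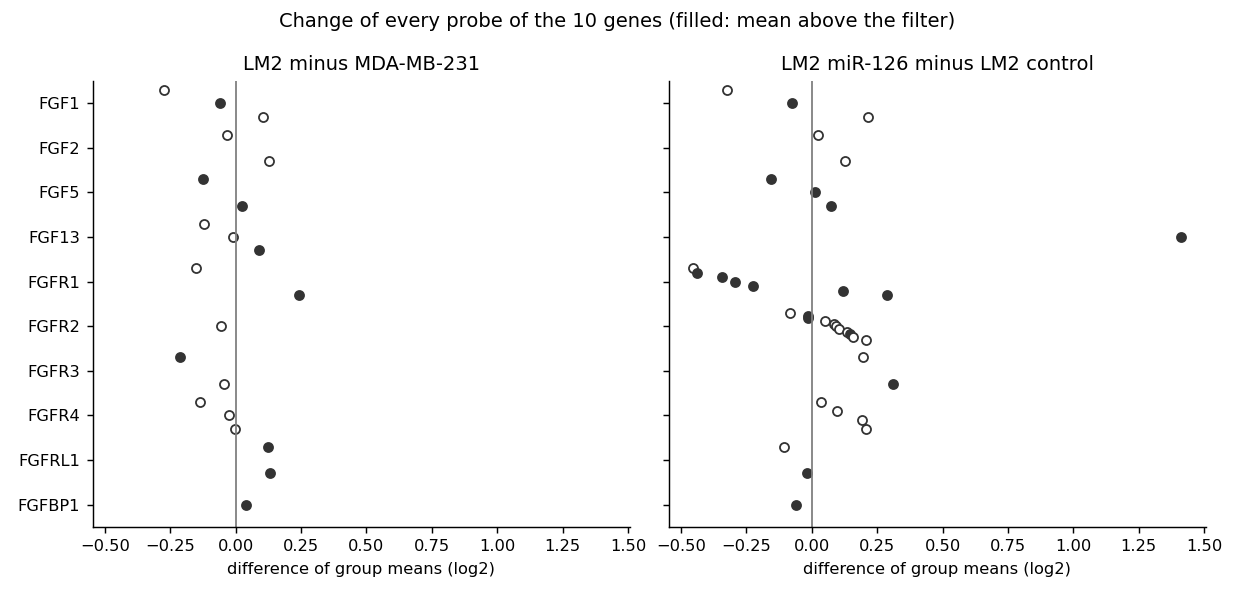
The difference of group means on the log2 scale for every probe of the 10 genes, LM2 minus MDA-MB-231 on the left (Illumina) and LM2 miR-126 minus LM2 control on the right (Affymetrix), with 1 point per probe. Filled points have a mean above the expression filter. Illumina differences lie between -0.27 and 0.24, and on the Affymetrix side FGF13 stands alone at 1.41.

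Among the 10 genes, FGF13 differed most between miR-126 cells and control cells. Its single Affymetrix probe set, 205110_s_at, read 2.62 and 2.003 times the array median in miR-126 cells on arrays A and B, against 0.901 and 0.832 times in LM2 control cells. Both miR-126 arrays lay above the array median and both control arrays below it, and the groups did not overlap. After quantile normalization the log2 means were 1.21 ± 0.19 in miR-126 cells and -0.21 ± 0.08 in LM2 control cells (SD, n = 2 each), a difference of 1.41 log2 (limma SE 0.13), or 2.66-fold. The control mean lay below the expression filter, so the fold rests on a dim value in the control cells. In RNA from whole cultures, more cells expressing FGF13 and more FGF13 RNA per cell cannot be told apart. Of 23063 tested probe sets, 9 had a difference at least as high, that of FGF13 included. FGF13 was chosen with this difference known and passed the filter through the miR-126 cells alone, so its rank is no test. The difference was 1.28 log2 without miR-126 array A and 1.55 log2 without array B, and 1.40 log2 on the deposited scale.

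**Figure D2:**
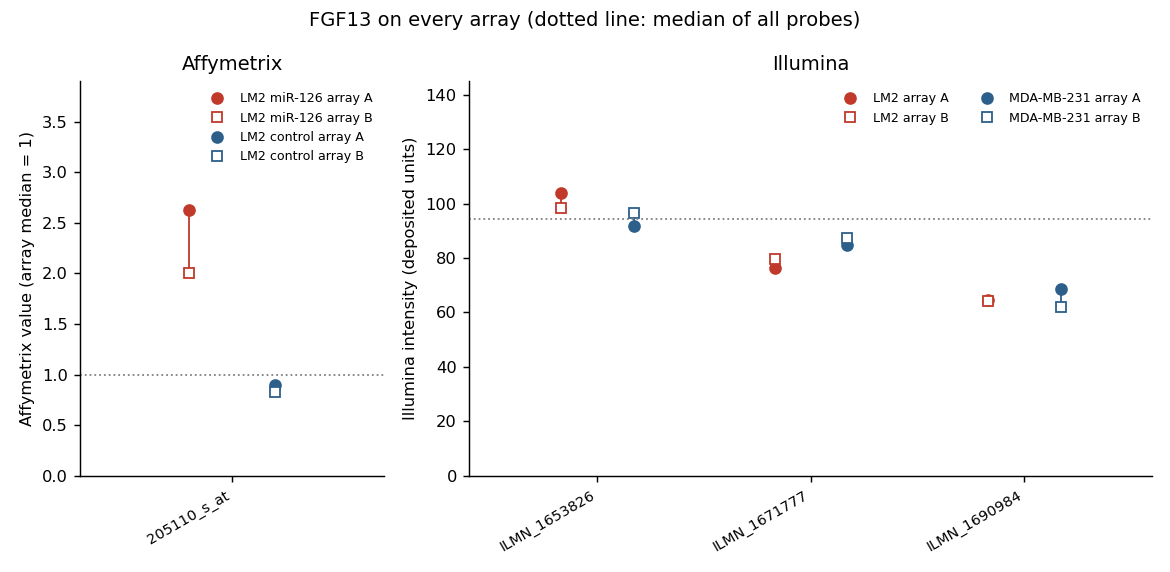
FGF13 on every array: the left panel gives the Affymetrix value relative to the array median for LM2 miR-126 and LM2 control, and the right panel the Illumina intensity of 3 probes for LM2 and MDA-MB-231. Filled circles are arrays A, open squares arrays B, and the dotted line is the median of all probes, on the right that of MDA-MB-231 array A. The miR-126 arrays sit at 2.62 and 2.003, above both control arrays, while all Illumina values lie between 61.9 and 104.

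The Illumina arrays carried 3 FGF13 probes, and only ILMN_1653826 lay above the filter. It read 104 and 98.3 intensity units in LM2, against 91.8 and 96.5 in MDA-MB-231, a difference of 0.09 log2 (limma SE 0.10). The LM2 arrays lay above both MDA-MB-231 arrays, by less than 2 units at the nearest pair. ILMN_1671777 read 76.1 and 79.7 in LM2 and 84.6 and 87.5 in MDA-MB-231, so its order was the opposite, at -0.12 log2. ILMN_1690984 read 64.7 and 64.4 in LM2 and 68.6 and 61.9 in MDA-MB-231, and the groups overlapped. ILMN_1653826 is annotated to another FGF13 transcript than the other 2 probes. The median of MDA-MB-231 array A was 94.4, and the lowest value on an array lay between 43.2 and 46.5. These probes therefore read near or below the middle of the array, where background makes up part of the signal and folds are understated. The 3 probes did not share a direction, and no difference in FGF13 between LM2 and MDA-MB-231 was detectable at these intensities. The mean over the 3 probes differed by -0.01 log2.

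The genes whose 4 mean-centred log2 values lay closest to those of FGF13 were named in each table by Euclidean distance, as a description. On the Affymetrix arrays they were TXN, a thioredoxin, at a distance of 0.39, NAA15, a subunit of an N-terminal acetyltransferase, at 0.39, THBS1, the matrix protein thrombospondin, at 0.40, MTA2, a chromatin remodelling subunit, at 0.43, and FAM76B at 0.50. In both tables each gene was read at its closest probe alone, and its other probes are not shown. The differences of these Affymetrix probe sets between miR-126 cells and control cells were 1.12, 1.22, 1.10, 1.08 and 1.03 log2. On the Illumina arrays BTN2A2, VWA3A, MARK1, FAM3B and ZNF134 lay within distances of 0.0097 to 0.020 of ILMN_1653826, with differences of 0.07 to 0.09 log2. The lists shared no gene. The genes were picked for closeness to FGF13, so their like differences follow from the choice, and nothing is read from them.

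FGFR1, the receptor that many mesenchymal cells use, was covered by 7 Affymetrix probe sets, of which 5 had lower values in miR-126 cells without overlap and 1 had higher ones, where 38.7% of all probe sets did not overlap. The 5 included the 4 that read more than 4 times the array median on every array. Probe set 226705_at read 8.20 and 7.87 times the array median in miR-126 cells, against 10.8 and 9.89 times in LM2 control cells (-0.34 log2, limma SE 0.14). Probe set 211535_s_at read 7.37 and 6.14 in miR-126 cells, against 9.54 and 9.03 in LM2 control cells (-0.44 log2, limma SE 0.12). In both, every miR-126 array lay below every control array. Probe set 210973_s_at read 5.63 and 5.11 in miR-126 cells, against 6.92 and 6.48 in LM2 control cells (-0.29 log2, limma SE 0.13). Probe set 207937_x_at read 4.32 and 4.37 in miR-126 cells, against 5.19 and 5.17 in LM2 control cells (-0.22 log2, limma SE 0.14). These groups did not overlap either, though the difference of 207937_x_at was -0.11 log2 without miR-126 array A. The values are given as deposited, while the differences were taken after quantile normalization. After it, 207937_x_at stood at 2.02 and 2.26 log2 on miR-126 arrays A and B, against 2.39 and 2.33 log2 in LM2 control cells.

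The other 3 FGFR1 probe sets read between 0.775 and 2.14 times the array median, and did not share one direction. Probe set 222164_at stood higher in miR-126 cells, at 2.14 and 2.11, than in LM2 control cells, at 1.64 and 1.94 (0.29 log2, limma SE 0.13). Probe set 215404_x_at read 2.11 and 1.55 in miR-126 cells and 1.47 and 1.93 in LM2 control cells, so its groups overlapped, and its sign turned when an array was left out. Probe set 207822_at, below the filter, read 0.928 and 0.775 in miR-126 cells and 1.16 and 1.17 in LM2 control cells (-0.45 log2). The probe sets of 1 gene share its transcripts and are not replicates. Averaged over the 7 FGFR1 probe sets, the difference was -0.19 log2.

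**Figure D3:**
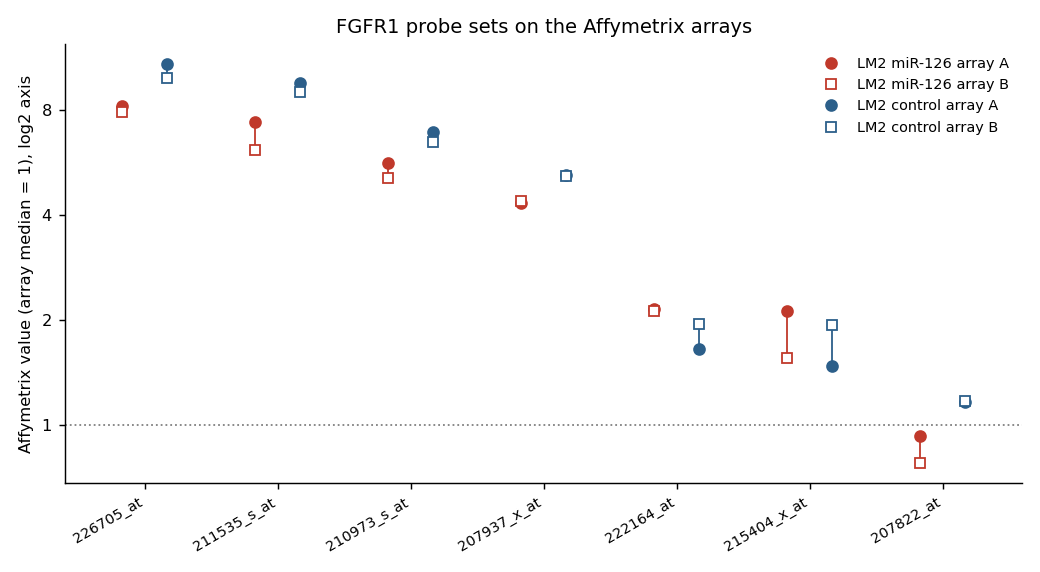
The 7 FGFR1 probe sets on the Affymetrix arrays, on a log2 axis in units of the array median (dotted line), with LM2 miR-126 left of LM2 control in each pair. Filled circles are arrays A and open squares arrays B. In the 4 probe sets on the left both miR-126 arrays lie below both control arrays, and 222164_at runs the other way.

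On the Illumina arrays the 2 FGFR1 probes pointed in opposite directions. ILMN_1796229 read 99.6 and 115 in LM2, against 82.0 and 94.5 in MDA-MB-231 (0.24 log2, limma SE 0.11), and both LM2 arrays lay above both MDA-MB-231 arrays. ILMN_1729369, below the filter, read 85.3 and 87.9 in LM2, against 94.1 and 102 in MDA-MB-231 (-0.15 log2), also without overlap. Both probes read near the array median. ILMN_1796229 passed the filter through LM2 alone, since its MDA-MB-231 mean lay below it. For ILMN_1729369 the MDA-MB-231 mean lay above the filter and the LM2 mean below it. The difference of ILMN_1796229 was 0.15 log2 without LM2 array B, 0.16 log2 without MDA-MB-231 array A and 0.66 log2 with the 5th percentile of each array subtracted as background. The mean of both probes differed by 0.04 log2.

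Each of the other kinase receptors had probes below the filter in both tables. FGFR3, best known as a brake on bone growth, stood higher in miR-126 cells in both its Affymetrix probe sets. Probe set 204379_s_at read 1.29 and 1.41 in miR-126 cells, against 1.05 and 1.13 in LM2 control cells (0.31 log2, limma SE 0.11). Probe set 204380_s_at, below the filter, read 0.289 and 0.309 in miR-126 cells, against 0.253 and 0.268 in LM2 control cells (0.20 log2). Both are differences of less than 1.25-fold. In LM2, the FGFR3 probe above the filter, ILMN_1723123, read 130 and 109, against 159 and 124 in MDA-MB-231 (-0.21 log2, limma SE 0.15), and the groups overlapped. The other, ILMN_1651966, below the filter, read 73.2 and 76.9 in LM2 and 80.9 and 75.01 in MDA-MB-231.

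FGFR2, a receptor typical of epithelial cells, had 11 Affymetrix probe sets, 3 of them above the filter. Their values ran from 0.188 to 1.86 times the array median and their differences from -0.08 to 0.21 log2, with 3 sets higher and 1 lower in miR-126 cells without overlap, a share close to the 38.7% of all probe sets. The 3 above the filter, 208234_x_at, 211400_at and 211398_at, differed by 0.15, -0.01 and -0.02 log2. The deposited values of 208234_x_at were 1.63 and 1.86 in miR-126 cells and 1.62 and 1.59 in LM2 control cells, which overlapped only after quantile normalization. The single Illumina probe, below the filter, read 66.1 and 84.5 in LM2 and 72.2 and 85.1 in MDA-MB-231. FGFR4, a receptor of the hormone FGF19, lay below the filter in all 4 Affymetrix probe sets and all 3 Illumina probes. Its Affymetrix sets differed by 0.03 to 0.21 log2 and 3 of 4 stood higher in miR-126 cells without overlap, where 38.7% of all probe sets did not overlap, at values between 0.331 and 1.06. Its Illumina probes read 72.6 to 100 units, and LM2 and MDA-MB-231 overlapped in each.

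FGFRL1, the receptor without a kinase, did not separate the groups in either table. On the Affymetrix arrays 223321_s_at read 6.67 and 5.87 times the array median in miR-126 cells, against 6.64 and 6.28 times in LM2 control cells (-0.02 log2, limma SE 0.13). Probe set 223648_s_at, below the filter, read 0.531 and 0.953 in miR-126 cells and 0.737 and 0.790 in LM2 control cells, so both control arrays lay between the miR-126 arrays. On the Illumina arrays ILMN_1795865 read 382 and 298 in LM2, against 291 and 324 in MDA-MB-231 (0.13 log2, limma SE 0.20). ILMN_2348367 read 177 and 163 in LM2, against 168 and 142 in MDA-MB-231 (0.12 log2, limma SE 0.16). LM2 and MDA-MB-231 overlapped in both.

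For the secreted ligands FGF5 and FGF1 the miR-126 arrays differed from each other. FGF5 was read by 3 Affymetrix probe sets, all above the filter. Probe set 210311_at read 2.98 and 1.30 times the array median in miR-126 cells, against 2.20 and 2.18 times in LM2 control cells (-0.16 log2, limma SE 0.37). Probe set 208378_x_at read 2.51 and 1.46 in miR-126 cells, against 1.85 and 1.98 in LM2 control cells (0.01 log2, limma SE 0.25). Probe set 210310_s_at read 1.96 and 0.961 in miR-126 cells, against 1.15 and 1.47 in LM2 control cells (0.07 log2, limma SE 0.35). In all 3, miR-126 array A lay above both control arrays and array B below both. Without array A the differences of 210311_at, 208378_x_at and 210310_s_at were -0.72, -0.34 and -0.43 log2, and without array B 0.40, 0.37 and 0.58 log2. The direction for FGF5 under miR-126 therefore rests on which array is used. On the Illumina arrays FGF5 probe ILMN_1740871 read 121 and 120 in LM2, between the 100.99 and 138 of MDA-MB-231. ILMN_2399100 read 94.4 and 96.7 in LM2, below the 103 and 108 of MDA-MB-231 (-0.12 log2, limma SE 0.10).

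**Figure D4:**
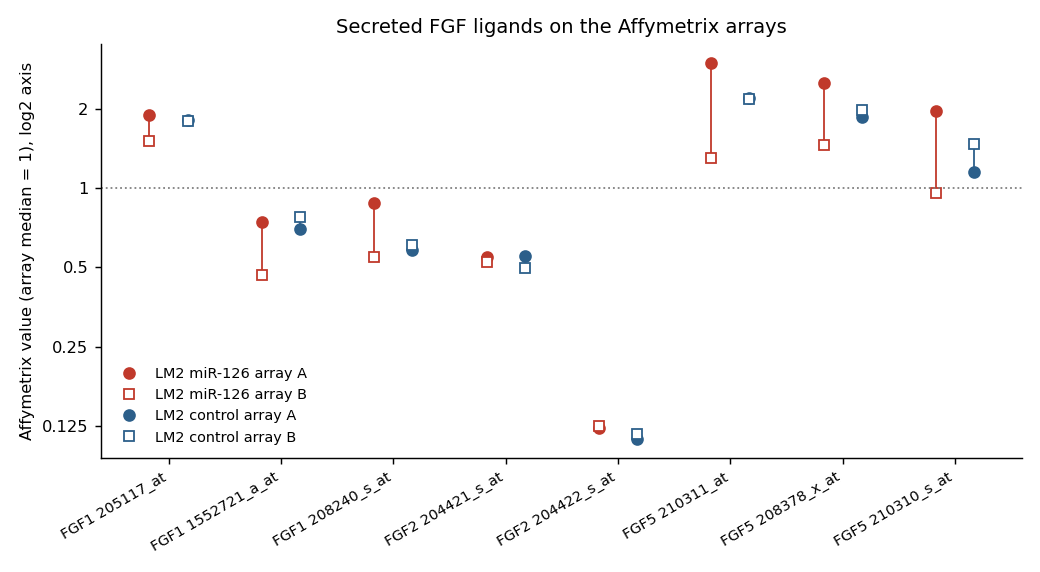
The secreted ligands FGF1, FGF2 and FGF5 on the Affymetrix arrays, on a log2 axis in units of the array median (dotted line), with LM2 miR-126 left of LM2 control in each pair. Filled circles are arrays A and open squares arrays B. For each FGF5 probe set miR-126 array A lies above and array B below both control arrays.

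FGF1, which binds every FGF receptor kinase, had 1 Affymetrix probe set above the filter, 205117_at. It read 1.89 and 1.51 in miR-126 cells, against 1.81 and 1.79 in LM2 control cells (-0.07 log2, limma SE 0.14), so the control arrays lay between the miR-126 arrays. The sets 1552721_a_at and 208240_s_at, below the filter, differed by -0.33 and 0.21 log2, both with overlap and both with miR-126 array A above array B. On the Illumina arrays ILMN_2349982 read 105 and 86.3 in LM2, against 92.9 and 107 in MDA-MB-231 (-0.06 log2, limma SE 0.11). ILMN_1753322, below the filter, read 89.5 and 71.7 in LM2, against 94.6 and 106 in MDA-MB-231, without overlap (-0.27 log2). ILMN_1699735 overlapped, at 86.2 and 85.2 in LM2 and 87.3 and 70.6 in MDA-MB-231.

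FGF2, a growth factor of fibroblasts and endothelium, lay below the filter in every probe of both tables. Probe set 204421_s_at read 0.546 and 0.524 in miR-126 cells and 0.550 and 0.496 in LM2 control cells. Probe set 204422_s_at read 0.123 and 0.125 in miR-126 cells and 0.112 and 0.117 in LM2 control cells, near the lowest values of the arrays (0.076 to 0.0816). ILMN_2105919 read 94.3 and 84.7 in LM2 and 87.2 and 97.0 in MDA-MB-231. ILMN_1744693 read 82.9 and 84.0 in LM2 and 76.2 and 74.1 in MDA-MB-231 (0.13 log2), the higher of these groups by fewer than 10 units. No level could be called for FGF2 at these intensities. FGFBP1, the carrier, read 1.30 and 1.53 in miR-126 cells and 1.61 and 1.39 in LM2 control cells (-0.06 log2, limma SE 0.15). Its Illumina probe read 116 and 121 in LM2 and 135 and 97.7 in MDA-MB-231 (0.04 log2, limma SE 0.14), and the groups overlapped in both tables.

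The rest of the pathway was read through 100 other genes in 10 lists, 1 probe a gene by highest mean, which were drawn up with earlier results of these data known. In LM2 against MDA-MB-231, 64 were above the filter, 31 with higher and 33 with lower values, with a median of -0.01 log2, against -0.04 log2 over 12490 genes. Of them 1 was called, where 2.22% of all genes tested were. In miR-126 cells against control cells, 56 were above the filter, 24 with higher and 32 with lower values, with a median of -0.04 log2, against 0.02 log2 over 12923 genes. None was called, as 0% of all genes tested were. With either miR-126 array left out 28 passed, a setting whose spread rests on the closely alike control arrays.

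No ligand or receptor partner outside the 10 genes was called. Of 15 other FGF ligands, 3 lay above the filter in each table, FGF18, FGF20 and FGF23 on the Illumina and FGF4, FGF6 and FGF22 on the Affymetrix arrays, with differences within 0.13 log2 of 0. The relatives of FGF13 inside the cell were FGF12, at -0.15 log2 in LM2 (limma adjusted p = 0.639, -0.35 to -0.08 log2 over the alternatives), and FGF11, at -0.11 log2 in miR-126 cells (limma adjusted p = 0.822, -0.17 to -0.05 log2 over the alternatives). Of the sodium channels that these factors bind, SCN2A, SCN3A and SCN9A were above the filter on the Illumina arrays, at 0.11, -0.05 and 0.003 log2, and none was above it on the Affymetrix arrays. The carrier FGFBP2 stood at 0.27 log2 in LM2 (limma adjusted p = 0.232) and at 0.75 log2 with background subtracted. The carrier FGFBP3 stood at -0.66 log2 in miR-126 cells (limma adjusted p = 0.669), at -0.21 log2 without miR-126 array A and at -1.11 log2 without array B. Of the adhesion molecules that bind FGF receptors, N-cadherin (CDH2) stood at -0.42 log2 in LM2 (limma adjusted p = 0.213) and at -0.75 log2 with background subtracted. L1CAM stood at -0.39 log2 in miR-126 cells (limma adjusted p = 0.672), at -0.16 log2 without miR-126 array A and -0.62 log2 without array B, and its other probe set stood at -0.12 log2. S100A13, which takes part in the export of FGF1, stood at 0.65 log2 in LM2 (limma adjusted p = 0.267). It stood at 0.39 log2 without MDA-MB-231 array A, passed without MDA-MB-231 array B (0.91 log2, limma adjusted p = 0.0404) and stood at 0.29 log2 over the mean of its probes, the other 5 of which ran from -0.15 to 0.64 log2. SYT1, another part of that route, stood at -0.59 log2 in miR-126 cells (limma adjusted p = 0.634), at -0.93 log2 without miR-126 array A and at -0.25 log2 without array B.

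Heparan sulfate, the co-receptor of secreted FGFs, had no called gene among its cores or its enzymes in the fit to all arrays without a replicate block. Of 16 synthesis and editing genes above the filter on the Illumina arrays, 4 had higher and 12 lower values in LM2. Their median was -0.13 log2, where all genes tested had a median of -0.04 log2 and 41.8% of them had higher values. The sulfotransferase HS3ST1 stood at -0.79 log2 (limma adjusted p = 0.134). HS3ST1 passed without MDA-MB-231 array B (-1.08 log2, limma adjusted p = 0.00316) and stood at -0.50 log2 without MDA-MB-231 array A. Of 12 such genes above the filter on the Affymetrix arrays, 9 had higher and 3 lower values in miR-126 cells. Their median was 0.15 log2, where all genes tested had a median of 0.02 log2 and 54.6% of them had higher values. The sulfotransferase HS2ST1 stood at 0.40 log2 (limma adjusted p = 0.531). The core protein syndecan-1 (SDC1) had no settled direction, at -0.33 log2 in LM2 in its probe of highest mean (limma adjusted p = 0.517), 0.07 and 0.30 log2 in its other probes and 0.01 log2 in their mean. Perlecan (HSPG2) stood at -0.45 log2 in miR-126 cells (limma adjusted p = 0.542), at 0.02 log2 in its other probe set, below the filter, and at -0.21 log2 in their mean. Close to the receptors, the exchange factor SOS1 stood at -0.52 log2 in LM2 (limma adjusted p = 0.0820). It passed without MDA-MB-231 array B (-0.58 log2, limma adjusted p = 0.0127) and stood at -0.32 log2 without LM2 array B and -1.38 log2 with background subtracted. The phosphatase PTPN11 stood at 0.28 log2 in miR-126 cells (limma adjusted p = 0.582), and at 0.18 log2 without miR-126 array A.

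Genes that ERK signalling switches on, feedback inhibitors among them, stood mostly higher in LM2 and mostly lower in miR-126 cells. The comparisons share no array. In LM2, 13 of 15 above the filter had higher values, with a median of 0.28 log2, where 41.8% of all genes tested had higher values. IL17RD and SPRY2 had lower values, at -0.58 and -0.38 log2. LM2 and MDA-MB-231 did not overlap in 6 of the 15, against 44% of all genes tested. SPRY4, a feedback inhibitor of receptor tyrosine kinase signalling, was the 1 gene called. Its intensity was 4062 and 2810 in LM2, against 1497 and 1360 in MDA-MB-231, a rise of 1.23 log2 or 2.35-fold (limma SE 0.26, adjusted p = 0.0366). The call was lost without LM2 array A (0.97 log2, limma adjusted p = 0.404), without LM2 array B (1.5 log2, limma adjusted p = 0.113), with a variance prior without a trend (limma adjusted p = 0.0701) and with the mean of the SPRY4 probes (0.50 log2, limma adjusted p = 0.185). The list median was 0.079 log2 without MDA-MB-231 array A, 0.43 log2 without MDA-MB-231 array B and 0.095 log2 without LM2 array A. In miR-126 cells, 13 of 16 had lower values, with a median of -0.26 log2, where 54.6% of all genes tested had higher values. None of the 16 was called. EGR1, SPRED3 and SPRY2 had higher values, at 1.15, 0.11 and 0.05 log2. EGR1 read 8.544 and 43.35 times the array median on miR-126 arrays A and B, against 7.705 and 9.597 times in LM2 control cells. The groups did not overlap in 7 of the 16, against 40.4% of all genes tested. The phosphatase DUSP5, which acts on nuclear ERK, read 15.2 and 12.3 times the array median in miR-126 cells, against 22.9 and 24.5 times in LM2 control cells (-0.78 log2, limma SE 0.10, adjusted p = 0.460). SPRY4 stood at -0.48 log2 in miR-126 cells (limma adjusted p = 0.558). The list median was 0.056 log2 without miR-126 array A and -0.51 log2 without array B, so its sign rests on array A.

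**Figure D5:**
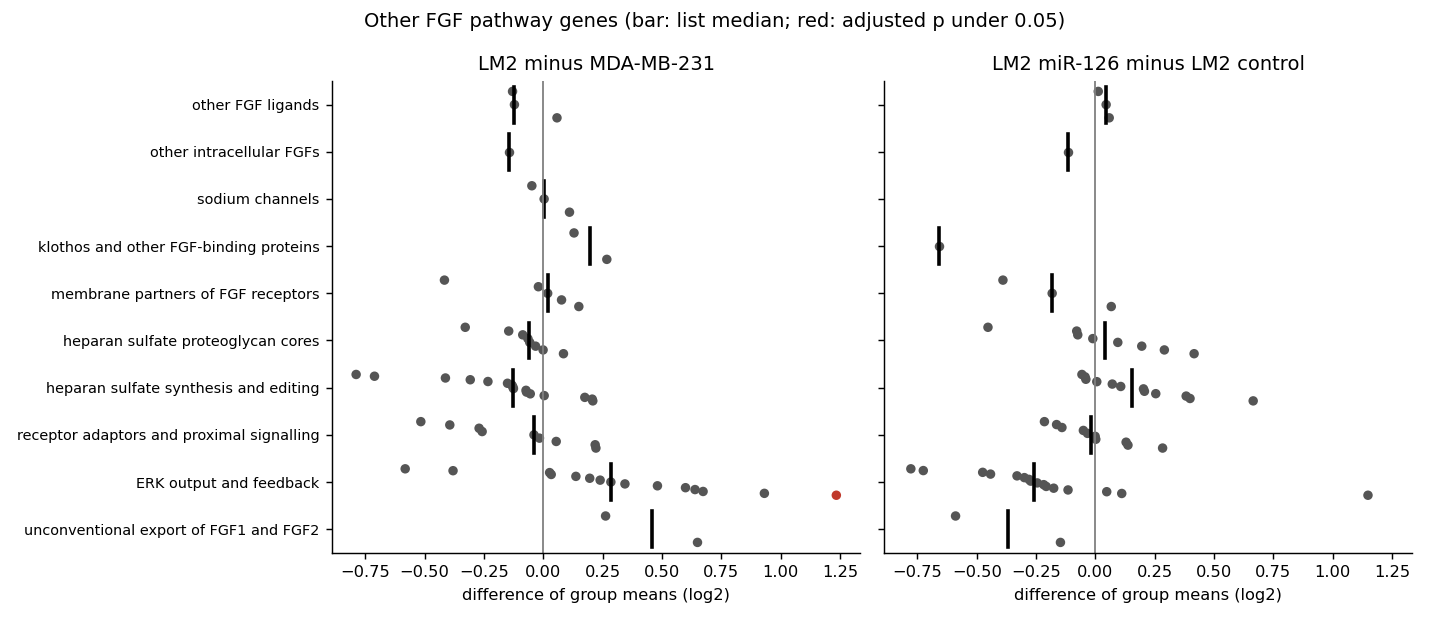
The difference of group means on the log2 scale for the other FGF pathway genes above the filter, by list, LM2 minus MDA-MB-231 on the left and LM2 miR-126 minus LM2 control on the right. Each point is a gene, the bar is the list's median, and the red point is SPRY4 at 1.23, the 1 gene called. The ERK output list has a median of 0.28 on the left and -0.26 on the right.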

How the data were processed

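Per the labels' protocols, a mirVana kit gave the total RNA and biotin was the label; it was hybridised to 8 arrays, 2 per group. The authors deposited 1 table of linear intensity values per platform; the sources used here do not state the software, the normalization or the genome build. The median intensity was 94.4 on MDA-MB-231 array A and 1 on LM2 control array A, and Affymetrix values were taken as relative to the array median. The quartiles of the arrays differed by at most 0.0493 log2 on the Illumina and 0.165 log2 on the Affymetrix arrays. Neither scanner files nor detection p-values were used here.

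Symbols came from the platform annotation, updated by Entrez identifiers (28059 and 41037 probes matched), and probes with 1 symbol were kept. Control probes were left out. Illumina values were taken as log2(value + 16) with a floor of 1, on the deposited scale since their quartiles differed by 0.0493 log2, under a limit of 0.1. The same form had been planned for the Affymetrix values but would flatten values around 1, so log2(value) with quantile normalization was used (quartiles differed by 0.165 log2). Folds of dim probes are understated. Probes whose mean exceeded the median probe mean were fitted with limma 3.58.1 in R 4.3.3 (lmFit, eBayes with trend), two-sided, Benjamini-Hochberg adjusted over all probes tested, threshold 0.05; for the pathway genes the same fit was read at the probe of highest mean. Groups did not overlap where every array of 1 group lay above every array of the other. The steps were tested on simulated data.

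The members and lists were chosen with earlier results of these data known. Text names all members and the 5 genes nearest to FGF13. Of each pathway list it names up to 4 called genes, or the gene of smallest p where none was called. Other pathway genes named were FGF18, FGF23, FGF4, FGF6, SCN3A, SCN9A, and SPRY4 under miR-126, which complete a short list or repeat a gene. IL17RD, SPRY2, SPRED3 and EGR1 were named as exceptions to the direction of their list. All of these other genes were chosen after their values were seen. Of the 100 pathway genes, 95 were read on the Illumina and 96 on the Affymetrix arrays, and the others were not analysed here. RefSeq windows for 9 of the 10 genes were matched by symbol. The plots used Python 3.11.15 and matplotlib 3.10.9.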

Additional observations from a re-analysis of the deposited data

How the results depend on the processing

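No Illumina probe or probe mean of the 10 genes that was tested was called under any of 14 alternatives, each of which tested those its own filter and probe rule kept, while the probes called over the whole table moved from 331 to 118 with a variance prior without a trend, 184 when the probes of a gene were averaged, 951 with the letter as a replicate block and 52 to 1054 with 1 array left out. Pathway genes called were 1 as reported, 0 under the prior without a trend and under the mean of probes, 4 with the replicate block, HS3ST1 (adjusted p = 0.00752) and SOS1 (adjusted p = 0.000595) among them, and 0 to 7 with 1 array left out. Quantile normalization gave 136 higher and 128 lower probes, so 51.5% of the calls were higher in LM2, against 37.5% as reported. On the Affymetrix arrays the replicate block gave 82 called probe sets, 1 of them in the 10 genes, FGF13, and 2 pathway genes, DUSP5 (adjusted p = 0.0450) among them. FGF13 was chosen with its difference known and passed the filter through the miR-126 cells alone, so its call is no test. With 1 array left out the counts ran from 0 to 6507 probe sets, 0 to 8 probe sets of the 10 genes and 0 to 28 pathway genes. The highest counts came without a miR-126 array (5849 without A and 6507 without B), where the spread rests on the closely alike control arrays and the lone array is assumed to vary like them. Same-letter arrays correlated by 0.115 and 0.104 in their deviations, which does not settle with 2 pairs in each table whether a letter marks more than a name. EGR1, picked after its values were seen, read higher on array A than on array B in both Illumina groups, 5524 and 717 in LM2 and 4213 and 248 in MDA-MB-231. With 1 array left out the sign turned for 4 of 9 Illumina probes and 9 of 17 Affymetrix probe sets of the 10 genes above the filter. FGF13 lay between 1.28 and 1.55 log2 under all 13 Affymetrix alternatives. With the 5th percentile subtracted, Illumina FGF13 stood at 0.23 log2 and FGF5 probe ILMN_2399100 at -0.33 log2, since subtraction widens differences of dim probes. Dim signal limits FGF2, FGFR2 and FGFR4 in both tables.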
